A study of Mus musculus with 28 samples.

Results

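Whole testes of Csmd1 knockout (KO) mice were set against whole testes of wildtype (WT) mice by sequencing of polyA RNA. The comparison takes every library that the labels give as whole testis. These are 5 KO libraries (mice 214, 269, 273, 286 and 308) and 2 WT libraries (mice 178 and 648), or 7 of the 28 libraries of the series; of the others, 20 are sorted germ cells from 8 mice. The question addressed is which genes, gene functions and cell types differ between the genotypes once the libraries are compared at a like content of late spermatids.

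Each library comes from 1 mouse, and the genotypes were taken from the labels. The labels name the strain C57BL/6 and no treatment, and the study's methods give the colony a mixed background that includes it. The KO allele is constitutive: a lacZ and neomycin cassette stands in place of exon 1 and a piece of intron 1 of Csmd1, in germ cells and somatic cells alike. The WT and KO animals were siblings according to those methods. An age of 40 days is listed for WT mouse 178. The study's methods also give about 40 days for the males whose cells were sorted. Of each such male, 1 testis was dissociated and sequenced as whole tissue without sorting. WT 178, WT 648 and KO 286 have sorted libraries here. The study describes whole testes of younger, sexually immature mice too, and no source used here gives an age for KO 214, 269, 273 or 308 by number, so the part of age in what follows was not tested.

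In the testis, spermatogonia divide and enter meiosis as spermatocytes, which become round and then elongating spermatids, while Sertoli cells nurse the germ cells inside the tubules and Leydig cells make androgen between them. Elongating spermatids replace the histones of their DNA with transition proteins and then with protamines, of which Prm1 encodes one, so Prm1 RNA tracks how far germ cells in a sample have matured. Mitochondria carry their own small genome, whose transcripts encode subunits of the respiratory chain and the tRNAs and rRNAs that translate them, while the proteins of cytoplasmic ribosomes are encoded in the nucleus.

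Expression is given as RPKM, reads scaled to the length of the transcript and to the mapped reads of the library, summed over the transcripts of a gene. Prm1 was at 603 RPKM in WT 178, 1152 in KO 214 and 1922 in KO 273. It was at 0.681 RPKM in WT 648, 0.85 in KO 269, 1.16 in KO 286 and 0.439 in KO 308. The libraries therefore fell into a high layer, with Prm1 of 10 RPKM or more, and a low layer below it, and each layer held 1 WT library. The values nearest the threshold were 603 above it and 1.16 below it. Mean log2(RPKM + 0.1) of Prm1 was 4.09 in KO and 4.44 in WT, a difference of -0.35, given as a description because Prm1 set the layers.

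Mapped reads, estimated from the step between neighbouring RPKM values, numbered 46244854 in WT 178, 43267865 in KO 214 and 31327935 in KO 273. They numbered 53171907 in WT 648, 45128330 in KO 269, 40492234 in KO 286 and 48531361 in KO 308. Within each layer the WT library was deeper than every KO library, and KO 308 was deeper than WT 178. The part of depth in the results was not tested. A single read on a short gene model is a sizeable RPKM value, so read estimates are given for short genes.

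Both WT libraries stood apart from the KO libraries of their layer. WT 178 had the lowest sum of RPKM over all genes, 714706 against 969723 to 1360675 in the others, and the fewest transcripts at 0, 8637 against 12304 to 22758. In WT 648 mitochondrially encoded RNA made up 20.2% of the summed RPKM. The share was 3.06% in KO 269, 2.34% in KO 286 and 7.1% in KO 308 of the same layer, and 1.16%, 1.04% and 0.512% in WT 178, KO 214 and KO 273. WT 648 also lacked a value for 2828 transcripts where each of the other 6 lacked one for the same 865. In the low layer, that difference in quantification and the genotype cannot be told apart. For the main results the value without either WT library is given as well, as it is for many of the gene lists; results for every list with each library left out in turn are tabulated.

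Markers of the testis were present in all 7 libraries. Every gene of the spermatogonia, meiotic, round spermatid and Leydig cell lists was above 0 in each library, as was every Sertoli cell gene but Rhox5, which was at 0 in all 7. Summed RPKM of the 7 elongating spermatid genes with a value was 6938 in WT 178, 10758 in KO 214 and 13110 in KO 273, against 212 in WT 648, 44.1 in KO 269, 72.9 in KO 286 and 13.9 in KO 308. The layers parted on this list as they did on Prm1, but within the low layer WT 648 had more of it than any KO library. In whole tissue, fewer cells of a type and less RNA per cell cannot be told apart.

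**Figure D1:**
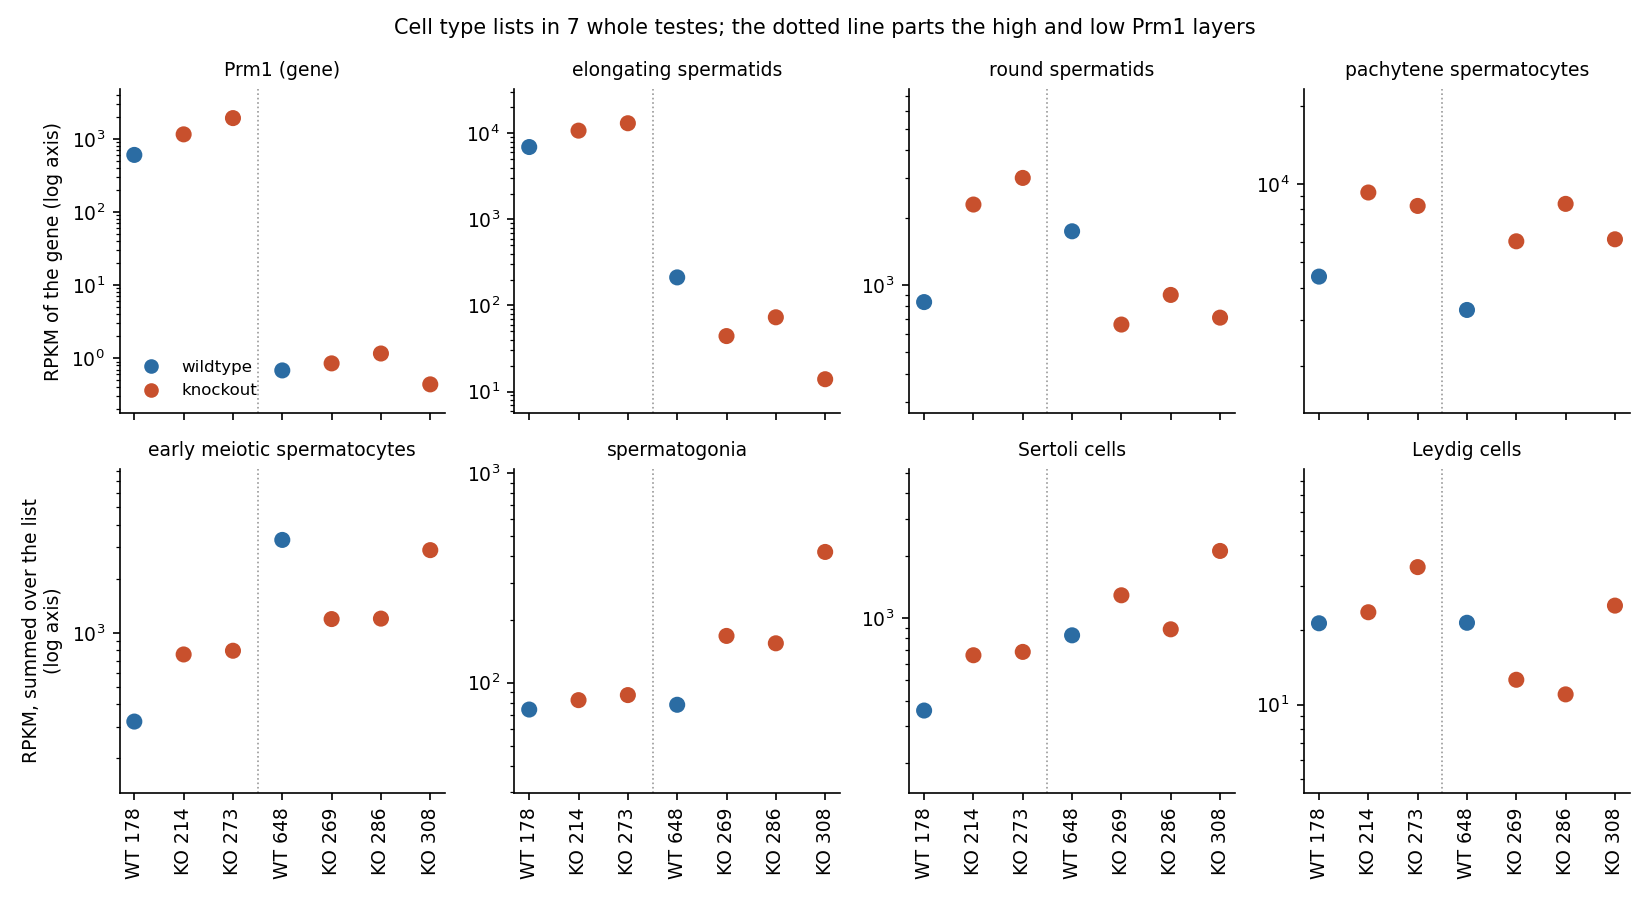
RPKM of Prm1 and RPKM summed over each cell type list (log axes) in the 7 whole testes, with WT in blue, KO in orange and a dotted line between the high and low Prm1 layers. Elongating spermatid RNA parts the layers, and in the low layer WT 648 (212 RPKM) lies above the 3 KO libraries (13.9 to 72.9).

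Of 37086 genes with a value, 22775 averaged 0.1 RPKM or more across the whole testes and were tested. The values were quantile-normalised, which gives every library the same distribution, and compared as log2(RPKM + 0.1). The median KO minus WT difference over all genes tested was 0.02 log2 units after normalisation and 0.38 on the values as deposited, so differences below are relative to the normalised scale unless deposited RPKM is named. Normalisation set weak genes low in WT 178: Cldn7 at 0.181 RPKM became -2.96 there, while 0.12 RPKM in WT 648 became -1.56. Amh was at 0.221 RPKM in WT 178, 0.18 in KO 214 and 0.192 in KO 273. Its normalised high layer difference was nonetheless 0.67. High layer differences of weak genes toward higher in KO can thus come partly from the scale, and that part was not tested. Genotype was fitted with limma beside log2 Prm1 of each library, and a gene was called at an adjusted p of at most 0.05. In that fit 1 gene was called higher in KO (0.00439% of those tested) and 1 lower (0.00439%). At an unadjusted p under 0.05 there were 1128 genes higher (4.95%) and 904 lower (3.97%). Without the Prm1 term limma called 0 genes in either direction, with 523 higher and 241 lower at an unadjusted p under 0.05. On values as deposited the fit with the Prm1 term had 3826 genes higher and 220 lower at that p, so this balance too follows the scaling.

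The counts turned on single libraries. Without WT 178 limma called 562 genes higher and 547 lower, a fit in which the lone WT library is assumed to vary like the KO libraries. Without WT 648, without KO 273 or without KO 286, it called 0 in both directions. Without KO 214 or without KO 308, 1 gene was called higher and 0 lower.

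A second description asked whether a gene lay on the same side in each layer, with no test, since each layer has a single WT library. A gene met it when the KO values of a layer all lay beyond the WT value, without overlap, in both layers. Normalised values were used, on which 0 RPKM differed between libraries. It was -3.32 in WT 178, -3.29 in KO 214 and -3.03 in KO 273, and -2.99 in WT 648 and -2.98 in KO 308. A tie at 0 RPKM could therefore count as a side, as it did for Cd46 in the low layer. In the high layer a tie of all its libraries at 0 counts as higher in KO. The shares given include such ties. The rule held for 2432 genes higher in KO (10.7%) and 1614 genes lower (7.09%). With a difference of at least 1 log2 unit in each layer it held for 323 higher (1.42%) and 215 lower (0.944%), of which 155 and 74 had a mean of at least 1 RPKM. On values as deposited the same rule gave 1191 higher and 128 lower, so the balance of the directions follows the scaling.

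The genotype difference was also tested for being unlike in the 2 layers. The limma interaction of genotype with layer called 0 genes (0%), with 4850 at an unadjusted p under 0.05. The smallest adjusted p was 0.0934, which was that of mt-Tf, the mitochondrial tRNA for phenylalanine. Its normalised difference was 0.16 in the high layer, and in the low layer it was negative.

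**Figure D2:**
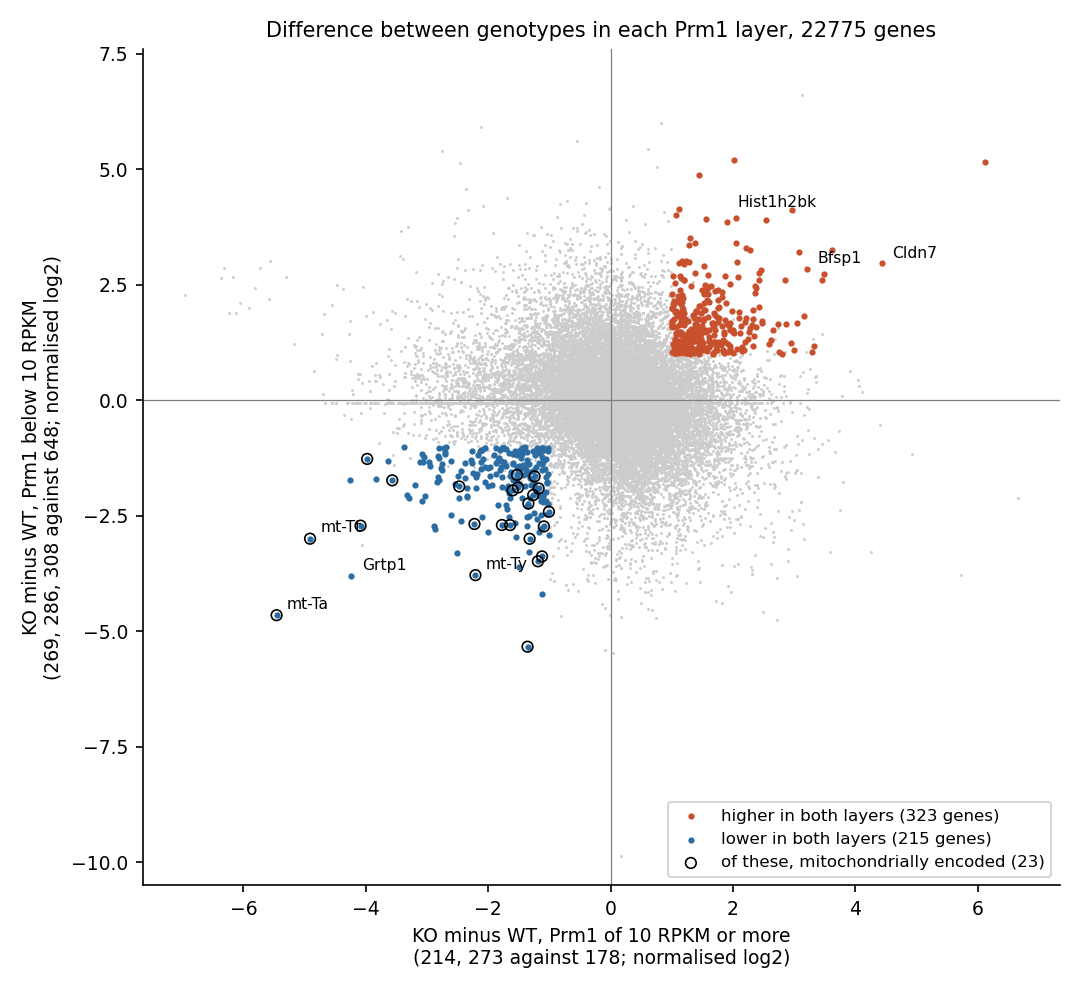
Normalised log2 difference between KO and WT for 22775 genes, in the high Prm1 layer (horizontal axis) and in the low layer (vertical axis). Genes that met the rule in both layers are orange (323 higher) or blue (215 lower), and black rings mark the 23 of the lower genes that are mitochondrially encoded.

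The gene called lower was mt-Ta, which encodes the mitochondrial tRNA that brings alanine to the ribosome. It lies on the minus strand of mitochondrial DNA, at bases 5018 to 5086 of chromosome M in GRCm38. Its RPKM was 3.45 in WT 178, 0 in KO 214 and 0 in KO 273, then 39.2 in WT 648, 1.28 in KO 269, 2.15 in KO 286 and 2.69 in KO 308. In estimated reads these were 11, 0 and 0 in the high layer, and 144, 4, 6 and 9 in the low layer. The KO values lay below the WT value in each layer, but the low layer KO values came close to WT 178. The normalised difference at matched Prm1 was -4.78 log2 units (SE 0.46, limma adjusted p = 0.0246), with lower values in 5 of 5 KO libraries. Since 2 KO libraries are at 0, its size depends on the 0.1 RPKM added. With 0.01 RPKM added (limma adjusted p = 0.162), with 1 RPKM added (0.232) or with no filter (0.208), mt-Ta was not called. The call was lost without WT 648 (adjusted p = 0.127) and without KO 273 (0.142), KO 308 (0.12), KO 214 (0.103) or KO 286 (0.081). It held without WT 178 (0.0187), where WT 648 is the only WT library, and over all the alternatives tried the adjusted p ran from 0.0187 to 0.999, the latter without the Prm1 term.

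In sorted cells mt-Ta was high in mouse 648 alone, at 61.9 RPKM in its spermatogonia, 31.4 and 21.8 in its primary and secondary spermatocytes, and 17.1 in its spermatids. WT 178 had 4.72, 2.96, 3.39 and 0.668 at these stages, and WT 351 had 3.04 in spermatids. KO values ran from 0.643 to 5.13, leaving out mouse 613, for which the gene has no value. WT 178 and WT 351 thus overlapped KO in sorted cells for mt-Ta. KO 614, which lacks the same transcripts as mouse 648, had 5.05 in primary spermatocytes, and the part of quantification was not tested.

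Other mitochondrial tRNA genes lay lower in both layers, and 4 of them were among the 12 lower genes with the largest smaller difference of the 2 layers and a mean of at least 1 RPKM: mt-Tt (threonine), mt-Tp (proline), mt-Ty (tyrosine) and mt-Tk (lysine). The sequences of mt-Ta and of the 3 others for which a single best anticodon stem was found are shown so that the genes counted can be seen. These 3 were picked for being lower in both layers, so that they lay on the same side as mt-Ta is not a result. They were read from the GENCODE transcripts for GRCm38 and run 5′ to 3′ on the strand of the tRNA, with the anticodon in capitals.
mt-Ta: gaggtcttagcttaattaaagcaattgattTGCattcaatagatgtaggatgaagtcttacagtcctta
mt-Tp: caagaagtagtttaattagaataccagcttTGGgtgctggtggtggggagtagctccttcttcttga
mt-Ty: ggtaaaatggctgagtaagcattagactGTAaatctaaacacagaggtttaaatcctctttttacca
mt-Tk: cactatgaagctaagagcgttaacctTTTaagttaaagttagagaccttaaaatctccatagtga
These genes are 65 to 69 nt long, which is shorter than a read, so part of what is counted on them can be longer mitochondrial precursor RNA. Their anticodons were placed at the middle of the loop of a stem with 5 Watson-Crick pairs.

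For mt-Ty RPKM was 0.968 in WT 178, 0.345 in KO 214 and 0 in KO 273, then 19.4 in WT 648, 1.65 in KO 269, 1.11 in KO 286 and 3.08 in KO 308. For mt-Tt it was 4.19, 0.345 and 0 in the high layer in the same order, and 8.98, 0.661, 2.21 and 2.15 in the low layer. Both were low in KO within a layer, on 0 to 13 estimated reads in the high layer and 2 to 69 in the low layer. For mt-Tp RPKM was 1.61, 0 and 0 in the high layer, and 3.93, 0.331, 2.58 and 0.307 in the low layer. For mt-Tk it was 0.998, 0.711 and 0, and 4.05, 0.341, 0.38 and 3.49. KO 286 came near WT 648 on mt-Tp and KO 308 did on mt-Tk, and no estimate for either gene was above 14 reads. None of these 4 was called in the whole testes (limma adjusted p 0.369 to 0.542). Without WT 178 the difference of mt-Ty was -3.71. In sorted spermatogonia WT 178 and 648 lay above KO 286 and 544 for each gene. In that order mt-Tt was at 19.2, 33.5, 6.09 and 2.0 RPKM, and mt-Tp at 15.1, 13.8, 1.22 and 2.4. For mt-Ty the values were 8.7, 55.6, 3.65 and 1.2, and for mt-Tk 4.49, 6.78, 0.419 and 0.413. At the other stages some of the 4 overlapped between the genotypes and some did not.

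Of the 22 mitochondrial tRNA genes tested, 13 lay lower without overlap in both layers, 12 of them by at least 1 log2 unit in each, and 1 lay higher without overlap; of all genes tested 7.09%, 0.944% and 10.7% did. Their median normalised difference was -2.24 at matched Prm1, -1.74 in the high layer and -2.70 in the low layer, and 16 of the 22 had an unadjusted p under 0.05 for a lower value (3.97% of all genes). The medians over all genes tested were 0.02, 0.08 and -0.02. Without WT 648 the median of the tRNA genes was -1.53 and 7 of the 22 had such a p (6.64% of all genes), and without WT 178 these were -2.62 and 14 (11.1%). The group and these omissions were added after seeing the data. The genes mt-Ta, mt-Tt, mt-Tp, mt-Ty and mt-Tk prompted the group and are among those counted as lower. The counts are therefore a description and not a test. Of the 2 mitochondrial rRNAs, 1 lay lower without overlap in both layers and neither had an unadjusted p under 0.05.

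All 13 mRNAs of mitochondrially encoded proteins were lower at an unadjusted p under 0.05, where 3.97% of all genes tested were, and 0 of the 13 were called. Of the 13, 12 lay lower without overlap in both layers (7.09% of all genes) and 11 did so by at least 1 log2 unit (0.944%). Their median normalised difference was -1.55 at matched Prm1, -1.24 in the high layer and -1.95 in the low layer. Without WT 648 it was -0.97, and without WT 178 it was -1.87. Over the omissions of a KO library it ran from -1.79 to -1.34.

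By mean over the 7 libraries the most abundant was mt-Co2, which led in WT 648 and KO 308 while mt-Co1 led in the others. It encodes a subunit of cytochrome c oxidase and was at 498 RPKM in WT 178, 624 in KO 214 and 425 in KO 273, then 20964 in WT 648, 1759 in KO 269, 1465 in KO 286 and 7498 in KO 308. On this deposited scale WT 178 lay between the 2 KO libraries of its layer, while WT 648 lay above every other library. The normalised difference of mt-Co2 was -1.55 (SE 0.51, limma unadjusted p = 0.0124), -1.01 in the high layer and -2.41 in the low layer. For mt-Co1, another subunit of the same enzyme, the values were 875, 1040 and 607 RPKM in the high layer, and 15046, 2476, 2199 and 6642 in the low layer. The same order appears: the high layer overlaps before normalisation and the low layer does not.

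The high layer part of this result therefore depends on the scale. On deposited values the median difference of the 13 mRNAs was -0.20 in the high layer and -2.22 in the low layer, beside 0.47 and 0.42 over all genes. The list was lower relative to all genes on either scale in both layers, but as deposited KO 214 lay above WT 178 for mt-Co1, mt-Co2, mt-Co3, mt-Atp6, mt-Atp8, mt-Nd1, mt-Nd3 and mt-Nd6. The mRNAs without overlap as deposited were mt-Cytb, mt-Nd2, mt-Nd4, mt-Nd5 and mt-Nd4l. Of these mt-Nd4l, a subunit of NADH dehydrogenase, was at 18.3, 5.45 and 6.77 RPKM in the high layer and 135, 27.7, 22.7 and 133 in the low layer. KO 308 nearly reached WT 648. Its annotated span overlaps mt-Nd4 on the same strand, so reads may be shared.

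**Figure D3:**
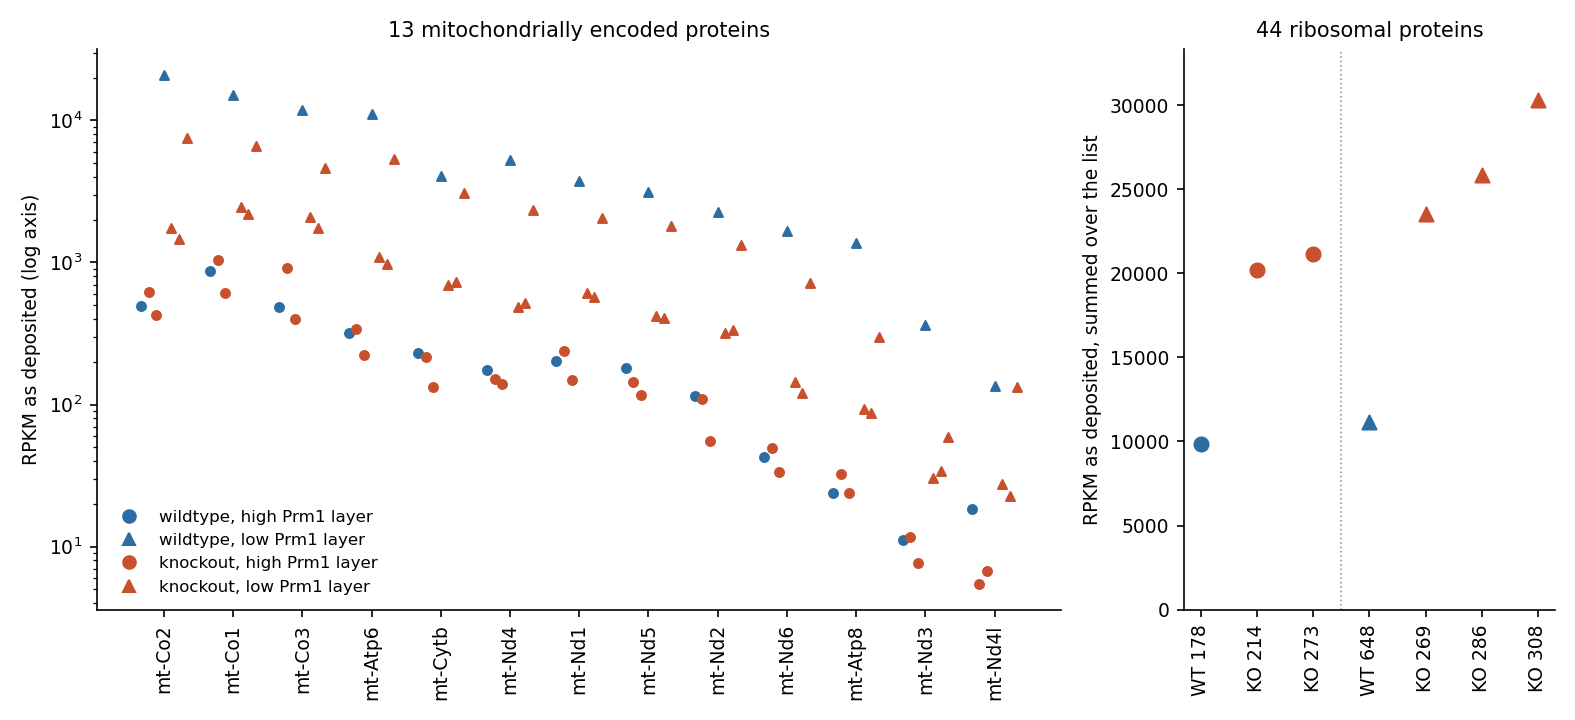
Left, RPKM as deposited (log axis) of the 13 mitochondrially encoded mRNAs, with WT in blue, KO in orange, circles for the high and triangles for the low Prm1 layer. Right, summed RPKM of 44 ribosomal protein genes in each library; WT 648 is the highest library for the mitochondrial mRNAs, and both WT libraries are the lowest for the ribosomal proteins.

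Ribosomal protein RNAs ran the other way. Summed RPKM of the 44 genes listed was 9877 in WT 178, 20187 in KO 214 and 21180 in KO 273, then 11170 in WT 648, 23532 in KO 269, 25844 in KO 286 and 30299 in KO 308. On this deposited scale every KO library lay above both WT libraries. After normalisation 12 of the 44 were higher without overlap in both layers, where 10.7% of all genes were, and 0 reached 1 log2 unit in each; 15 had an unadjusted p under 0.05 for a higher value (4.95% of all genes) and 0 were called. The median normalised difference was 0.65 at matched Prm1, but 0.07 in the high layer against 1.14 in the low layer. On deposited values these layer medians were 1.09 and 1.32, beside 0.47 and 0.42 over all genes.

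On normalised values the result rests on WT 648. Without it the median was 0.15, and without WT 178 the median was 1.15. By mean the most abundant member was Rpl30, of the large subunit, at 912 RPKM in WT 178, 2550 in KO 214 and 1527 in KO 273, then 224 in WT 648, 2386 in KO 269, 2372 in KO 286 and 3199 in KO 308. WT 648 was the lowest and KO 308 the highest. Its normalised difference was -0.07 in the high layer and 3.56 in the low layer. Many ribosomal protein genes have near-identical processed copies, so the assignment of their reads is uncertain.

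Of the 12 higher genes that met the rule in both layers with the largest smaller difference of the 2 layers, 5 are models with a clone name and are counted only. They include the called one, a predicted miRNA gene of 57 nt with 0 estimated reads in both WT libraries and 7 to 24 in the KO libraries (limma adjusted p = 0.0246, higher in 5 of 5 KO libraries). Against WT libraries that are both at 0 no size of the difference is given. The call did not hold without the Prm1 term (limma adjusted p = 0.242), with 1 RPKM added (0.326) or with no filter (0.208). That call was lost without WT 648 (adjusted p = 0.127), without KO 273 (0.183), without KO 214 (0.132) and without KO 286 (0.112), and over all the alternatives tried the adjusted p ran from 0.0106 to 0.326. In sorted cells this gene did not part the genotypes: it was at 13.3 RPKM in WT 351 spermatids and at 0 to 0.773 in the cells of WT 178 and WT 648, and at 0 in every library of KO 544 and KO 550, 0.509 in KO 614 and 1.56 to 11.5 in KO 286; mouse 613 has no value for it.

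The first named gene among them was Cldn7, which encodes claudin 7, a tight junction protein of epithelia. Its RPKM was 0.181 in WT 178, 2.9 in KO 214 and 3.12 in KO 273, then 0.12 in WT 648, 3.14 in KO 269, 2.0 in KO 286 and 3.79 in KO 308. All 5 KO values lay above both WT values, on 59 to 127 estimated reads in KO and 6 to 8 in WT. The normalised difference was 3.69 (SE 0.48, limma adjusted p = 0.118, higher in 5 of 5 KO libraries), so it was not called; without WT 178 it was (2.99, adjusted p = 0.0258), and over all the alternatives tried the adjusted p ran from 0.0258 to 0.662.

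In sorted cells Cldn7 did not part the genotypes. WT spermatogonia had 5.89 RPKM in mouse 178 and 0.202 in mouse 648, and KO spermatogonia had 1.15 in mouse 286 and 1.62 in mouse 544. The WT 178 value lay above both KO values and the WT 648 value below them. Primary spermatocytes had 0.198 and 0.489 in WT mice 178 and 648, and 2.46, 1.85, 0.181 and 0.092 in KO mice 544, 550, 613 and 614. The KO values overlapped WT there as well.

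Hist1h2bk, a histone H2B gene of the replication-dependent cluster, was at 0.632 RPKM in WT 178, 2.89 in KO 214 and 3.66 in KO 273, then 0.078 in WT 648, 4.67 in KO 269, 2.78 in KO 286 and 7.78 in KO 308. Every KO value lay above both WT values (3.27, SE 0.49, limma adjusted p = 0.236; without WT 178, 3.93 and 0.0201). H2B genes are near copies of one another, so its reads are uncertain in origin. Zfyve21, a FYVE domain protein of endosomes and focal adhesions, was at 0.297, 1.16 and 0.731 RPKM in the high layer and 0.072, 3.21, 2.24 and 3.25 in the low layer. It too was higher in all KO libraries than in either WT library (2.87, SE 0.46, limma adjusted p = 0.271, and 3.33 without WT 178). In sorted primary spermatocytes Hist1h2bk was at 1.65 to 7.8 RPKM in KO 544, 550, 613 and 614, and at 0.497 and 0 in WT 178 and 648. Zfyve21 was at 0.34 to 2.54 RPKM in those KO mice, and at 0.091 and 0.015 in those WT mice. In spermatids and spermatogonia the genotypes overlapped for both genes, and in spermatogonia WT 178 was highest (18.3 and 2.8 RPKM).

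Sapcd1 was at 0.475, 1.71 and 1.33 RPKM in the high layer and 0, 2.34, 3.18 and 0.904 in the low layer, without overlap between the genotypes (limma adjusted p = 0.443; without WT 178, 0.0306). Its annotation overlaps Vwa7 on the opposite strand. In sorted primary spermatocytes Sapcd1 was at 0.628 to 1.67 RPKM in KO 544, 550, 613 and 614, and at 0.062 and 0 in WT 178 and 648. Secondary spermatocytes had 0.91 to 1.32 in KO 286, 544 and 550, and 0.348 and 0.407 in WT 178 and 648. The genotypes overlapped at the other stages, where WT 178 was highest, at 6.82 in spermatids and 1.5 in spermatogonia. Mir410, a miRNA gene within Mirg of the imprinted cluster on chromosome 12, was at 0.534, 1.43 and 2.36 RPKM, and 0, 1.09, 0.914 and 0.763. These are 0 to 6 estimated reads a library, and they cannot be parted from those of Mirg (adjusted p = 0.435; without WT 178, 0.0319).

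Bfsp1, which encodes the lens beaded filament protein filensin, was at 0.449, 4.3 and 2.48 RPKM in the high layer and 0, 0.118, 3.32 and 0.875 in the low layer. Ltk, a receptor tyrosine kinase, was at 0.301, 1.36 and 4.49, and 0, 0.287, 1.71 and 0.735. In both genes KO 269 lay below WT 178, and within each layer KO lay above WT (limma adjusted p 0.482 and 0.468). No size of the difference is given for Sapcd1, Mir410, Bfsp1 and Ltk, which are at 0 in WT 648.

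**Figure D4:**
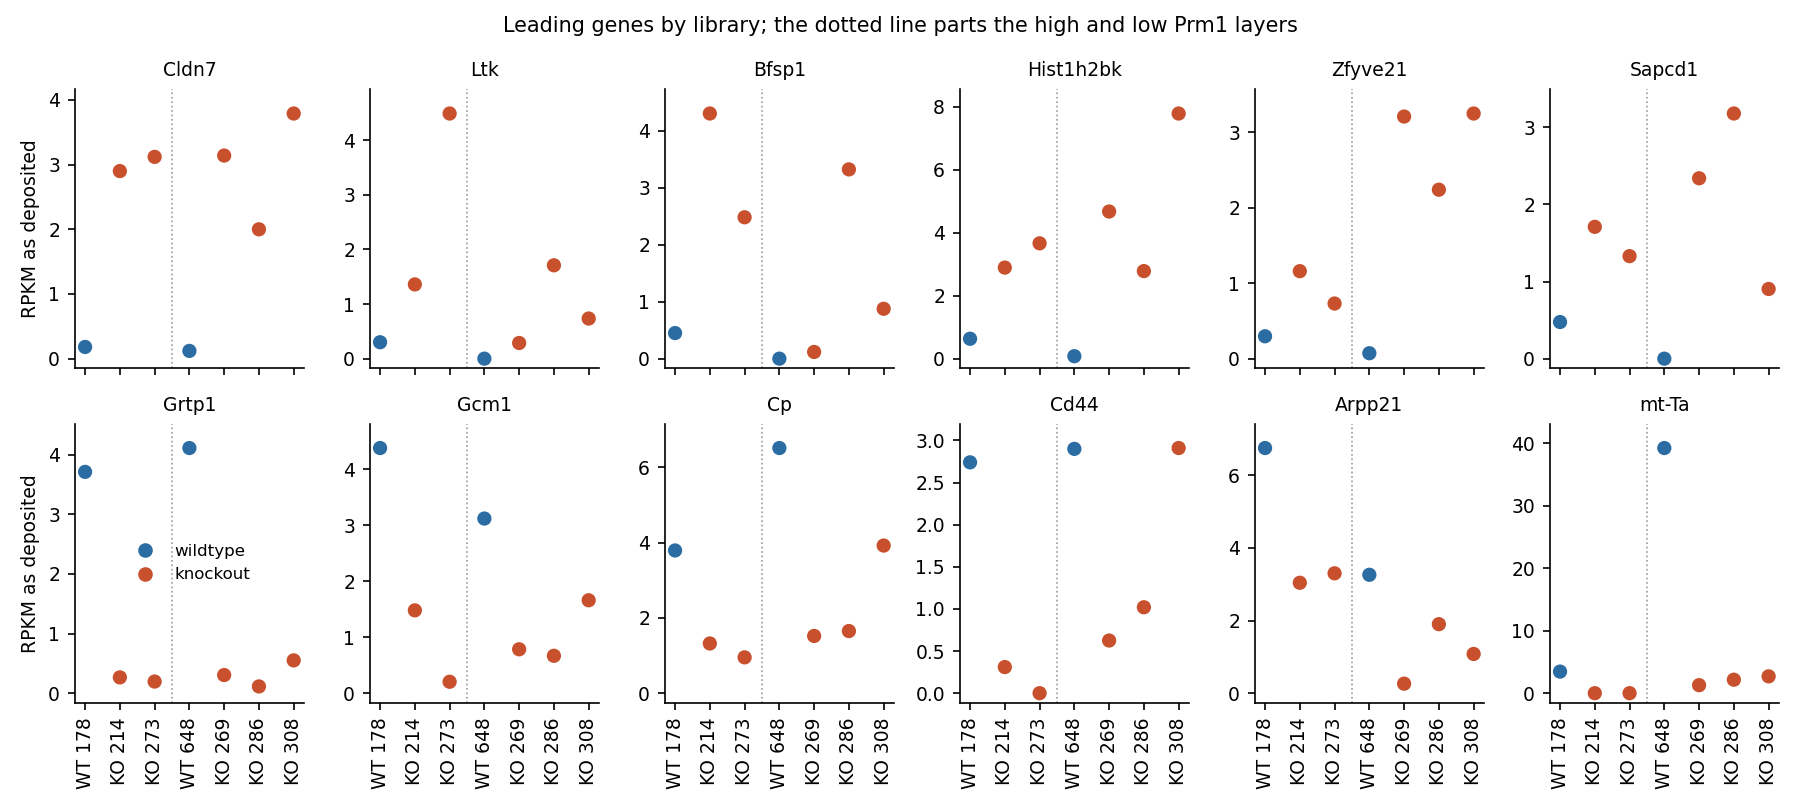
RPKM as deposited of 12 leading genes in the 7 whole testes, with WT in blue, KO in orange and a dotted line between the high and low Prm1 layers. Cldn7, Hist1h2bk, Zfyve21 and Sapcd1 are above both WT values in all 5 KO libraries, and Grtp1, Gcm1 and mt-Ta are below both.

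Among the lower genes chosen by the smaller difference of the 2 layers, Grtp1 came next after mt-Ta. It encodes a TBC domain protein named for its response to growth hormone, lies at bases 13172022 to 13200620 of chromosome 8 in GRCm38, and overlaps Lamp1 on the opposite strand. Its RPKM was 3.71 in WT 178, 0.265 in KO 214 and 0.195 in KO 273, then 4.11 in WT 648, 0.304 in KO 269, 0.113 in KO 286 and 0.55 in KO 308. Both WT libraries lay above all 5 KO libraries, on 218 and 277 estimated reads in WT and 6 to 34 in KO. The normalised difference was -3.99 (SE 0.54, limma adjusted p = 0.12, lower in 5 of 5), -4.24 in the high layer and -3.81 in the low layer. It was called without WT 178 (-3.78, adjusted p = 0.034) and with 1 RPKM added in place of 0.1 (-2.32, 0.0459), and over all the alternatives tried the adjusted p ran from 0.034 to 0.662.

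Sorted germ cells gave Grtp1 values in mice outside the whole testes as well. In WT primary spermatocytes it was at 20.0 RPKM in mouse 178 and 5.01 in mouse 648, and in KO primary spermatocytes at 0.094 in mouse 544, 0.094 in mouse 550, 15.8 in mouse 613 and 13.7 in mouse 614. In secondary spermatocytes it was at 10.2 and 4.08 in WT 178 and 648, and at 0.237, 0.098 and 0.24 in KO 286, 544 and 550. In spermatids it was at 3.01, 8.04 and 3.12 in WT 178, 351 and 648, and at 0.031 and 0.033 in KO 286 and 544. KO mice 286, 544 and 550 were thus low at these stages and all WT mice higher, but KO mice 613 and 614 lay within the WT range. The library of mouse 613 stood apart, with 12.2% of its values on whole reads and no value for 12787 transcripts, while mouse 614 lacked the same 2828 as mouse 648. In spermatogonia the values were 2.46 and 0.706 in WT 178 and 648, and 0.644 and 0.574 in KO 286 and 544.

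Grtp1 lies 2.69 Mb from Csmd1. In a window of 10 Mb to each side of Csmd1, chosen after these values were seen, 188 genes were tested. Of these, 7 met the rule in both layers as lower with at least 1 log2 unit (3.72%, against 0.944% of all genes) and 1 as higher (0.532%, against 1.42%). Grtp1 prompted the window and is 1 of the 7, so the count is a description and not a test. Besides Grtp1 the lower ones with a symbol were Xkr5, Zmat4 and Defb11. With no minimum size, 24 of the 188 genes lay lower without overlap in both layers and 22 lay higher. A constitutive allele on a mixed background can carry linked chromosome 8 DNA with it. Such DNA was not typed here, and it and the allele cannot be told apart.

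The other lower protein-coding genes were Gcm1, Cp, Arpp21 and Cd44. Gcm1, a transcription factor known from the placenta, was at 4.38 RPKM in WT 178, 1.48 in KO 214 and 0.204 in KO 273, then 3.12 in WT 648, 0.784 in KO 269, 0.668 in KO 286 and 1.66 in KO 308. It was lower in all KO libraries than in either WT library (-2.65, SE 0.63, limma adjusted p = 0.468). Cp, which encodes the copper carrier and ferroxidase ceruloplasmin, was at 3.79, 1.32 and 0.951 RPKM, and 6.51, 1.52, 1.65 and 3.92. KO 308 lay just above WT 178, and its annotation overlaps Hps3 on the opposite strand (-2.16, SE 0.44, adjusted p = 0.443).

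Arpp21, a regulator of calmodulin signalling known from neurons, was at 6.75, 3.04 and 3.3 RPKM in the high layer and 3.26, 0.262, 1.9 and 1.08 in the low layer (limma adjusted p = 0.469). Its span overlaps a gene on the opposite strand. Cd44, the cell surface receptor for hyaluronan, was at 2.74, 0.31 and 0, and 2.9, 0.625, 1.02 and 2.91 (adjusted p = 0.468). As deposited, KO 308 was level with WT 648 for Cd44, and the values lay apart only after normalisation. In sorted cells mouse 648 had 32.1 RPKM of Cd44 and 95.2 of Cp in its spermatogonia, against 3.56 and 10.6 in WT 178 spermatogonia. KO 286 had 5.81 and 22.1 there and KO 544 had 1.96 and 0.655, so the genotypes overlapped.

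Late germ cell lists were lower in KO in the low layer. Of the 7 elongating spermatid genes tested, 4 were lower at an unadjusted p under 0.05 (3.97% of all genes) and 3 without overlap in both layers (7.09%). Of the 3, which were Smcp, Gapdhs and Akap4, 0 were lower by 1 log2 unit in each layer, and 0 of the list were called. Gapdhs and Akap4 were lower in the high layer only once normalised. As deposited, Gapdhs was at 1063 RPKM in WT 178, 1423 in KO 214 and 2174 in KO 273, and Akap4 was at 396, 704 and 733. The median of the list was -1.66 at matched Prm1, -0.18 in the high layer and -1.97 in the low layer, and on deposited values 0.84 and -1.55. Without WT 648 it was -1.20, and without WT 178 it was -2.11. Smcp, a protein of the sperm mitochondrial capsule, was at 1255, 1225 and 1475 RPKM in the high layer and 144, 13.8, 25.4 and 6.44 in the low layer. As deposited the high layer was level, and WT 648 stood above the KO libraries of the low layer. After normalisation the difference of Smcp was -0.96 in the high layer and -3.75 in the low layer. Prm2, in contrast, was at 0.456 in WT 648, 1.83 in KO 269, 1.68 in KO 286 and 0 in KO 308, so in the low layer the protamines and Smcp were not in the same order. Tnp2 was at 2.33 in WT 648 and at 5.53, 4.99 and 1.43 in KO 269, 286 and 308, and Odf1 was at 2.82 against 2.56, 5.03 and 0.559. A match on Prm1 thus left WT 648 above KO 269, 286 and 308 in Smcp, Tnp1, Gapdhs and Akap4, but not in every late spermatid RNA.

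The 8 round spermatid genes had a median of -0.85 (0.13 in the high layer and -1.34 in the low layer), and 0 lay apart in both layers. Without WT 648 the median was -0.37, and without WT 178 it was -1.40. Their summed RPKM was 837, 2287 and 3009 in WT 178, KO 214 and KO 273, and 1736, 664, 901 and 713 in WT 648, KO 269, KO 286 and KO 308. KO lay above WT in the high layer and below it in the low layer. The 8 early meiotic genes had 320, 757 and 794, and 3291, 1192, 1199 and 2887, with medians of 0.23 and -0.72 in the layers. Sycp3, of the axis of meiotic chromosomes, was the most abundant at 1714 RPKM in WT 648 and 119 in WT 178. Of the 8 genes 2, Sycp1 and Sycp2, were lower without overlap in both layers (7.09% of all genes), and 1, Dmc1, was higher (10.7%). These sides are on normalised values: as deposited, Sycp1 was at 25.9 RPKM in WT 178 and 43.1 and 49.9 in KO 214 and KO 273, Sycp2 was at 97.6, 175 and 190, and KO 308 had 255 of Sycp1 against 213 in WT 648. The median was -0.16 at matched Prm1, 0.36 without WT 648 and -0.69 without WT 178.

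Pachytene genes summed to 4412, 9289 and 8248 RPKM in the high layer and 3284, 6031, 8400 and 6139 in the low layer, so every KO library lay above both WT libraries as deposited, while the median normalised difference was 0.13 (0.39 without WT 648). Among the 8, 1 met the rule in both layers: Ldhc, the germ cell lactate dehydrogenase, at 693 RPKM in WT 178, 3554 in KO 214 and 2730 in KO 273, then 484 in WT 648, 1581 in KO 269, 2209 in KO 286 and 1226 in KO 308. All KO values were above both WT values (1.40, SE 0.37, limma unadjusted p = 0.00365; layers 1.15 and 1.72). Hspa2 and Ybx2 had -0.04 and 0.57. Spermatogonia genes had a median of 0.22 with 3 of 8 higher without overlap (10.7% of all genes) and 0 with 1 log2 unit. The median was 0.61 without WT 178, 0.37 without WT 648 and 0.02 without KO 308, and KO 308 had the highest sum, 420 RPKM against 74.4 to 167 elsewhere.

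Somatic cell lists showed little that held in both layers. Of 9 Sertoli cell genes tested 2 were higher without overlap, where 10.7% of all genes were, and the median was 0.72, with -0.01 in the high layer and 0.63 in the low layer; without WT 648 it was 0.14. Clu was the most abundant at 288 RPKM in WT 178 and 679 in WT 648, and at 572 to 1605 in KO. The 8 Leydig cell genes had layer medians of 0.57 and -0.88 (0.38 and -0.29 as deposited). As deposited, all genes had 0.47 and 0.42. Of the Leydig cell genes 1 was higher without overlap. At matched Prm1 their median was -0.24, with 0.59 without WT 648 and -0.86 without WT 178. Insl3, their most abundant gene, was at 10.3, 9.38 and 15.2 RPKM, and 2.99, 1.88, 3.96 and 9.49, with overlap in both layers.

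Macrophage, lymphocyte and granulocyte markers were at low levels. The 9 macrophage genes summed to 6.22 to 11.5 RPKM over the 7 libraries, the lymphocyte genes to 0.821 to 3.0 and the granulocyte genes to 1.46 to 12.7. Macrophage genes had a median of -0.22 (2 of 9 lower without overlap), the 5 lymphocyte genes tested 0.15 (1 lower) and the 2 granulocyte genes tested -0.29 (0), where 7.09% of all genes were lower without overlap. The signs turn on the WT libraries: the macrophage median was 0.10 without WT 648 and -0.69 without WT 178, and the lymphocyte median was -0.27 and 0.82. The granulocyte median was -0.50 and -0.09, and its sign turned with the handling of low values: it was 0.50 with a filter of 1 RPKM, 0.35 with no filter and 0.09 with 1 RPKM added, but -1.01 with 0.01 RPKM added. Erythroid genes summed to 41.0, 16.3 and 52.5 RPKM in the high layer and 107, 151, 262 and 527 in the low layer, and 0 of 6 lay apart in both layers. Their median was -1.14 without WT 648 and 1.10 without WT 178. Hba-a2 was at 220 RPKM in KO 308 and 52.4 in WT 648.

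Stromal and peritubular genes had a median of -0.07 with 1 of 11 lower without overlap (7.09% of all genes), and endothelial genes -0.13 with 0 of 7. Without WT 648 these medians were 0.14 and -0.54, and without WT 178 they were -0.24 and -0.10. KO 308 had 128 RPKM of the stromal list against 12.2 to 45.7 in the other libraries. The 5 adipocyte genes had 0.95, on sums of 1.33 to 9.86 RPKM, and the value was 0.04 among genes with a mean of at least 1 RPKM. With all 5 genes it was 0.57 without KO 273. Of 7 epididymis genes 1, Rnase10, was tested, at 1.84 to 8.44 RPKM (-0.53, with 0.70 without WT 648 and -1.71 without WT 178).

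**Figure D5:**
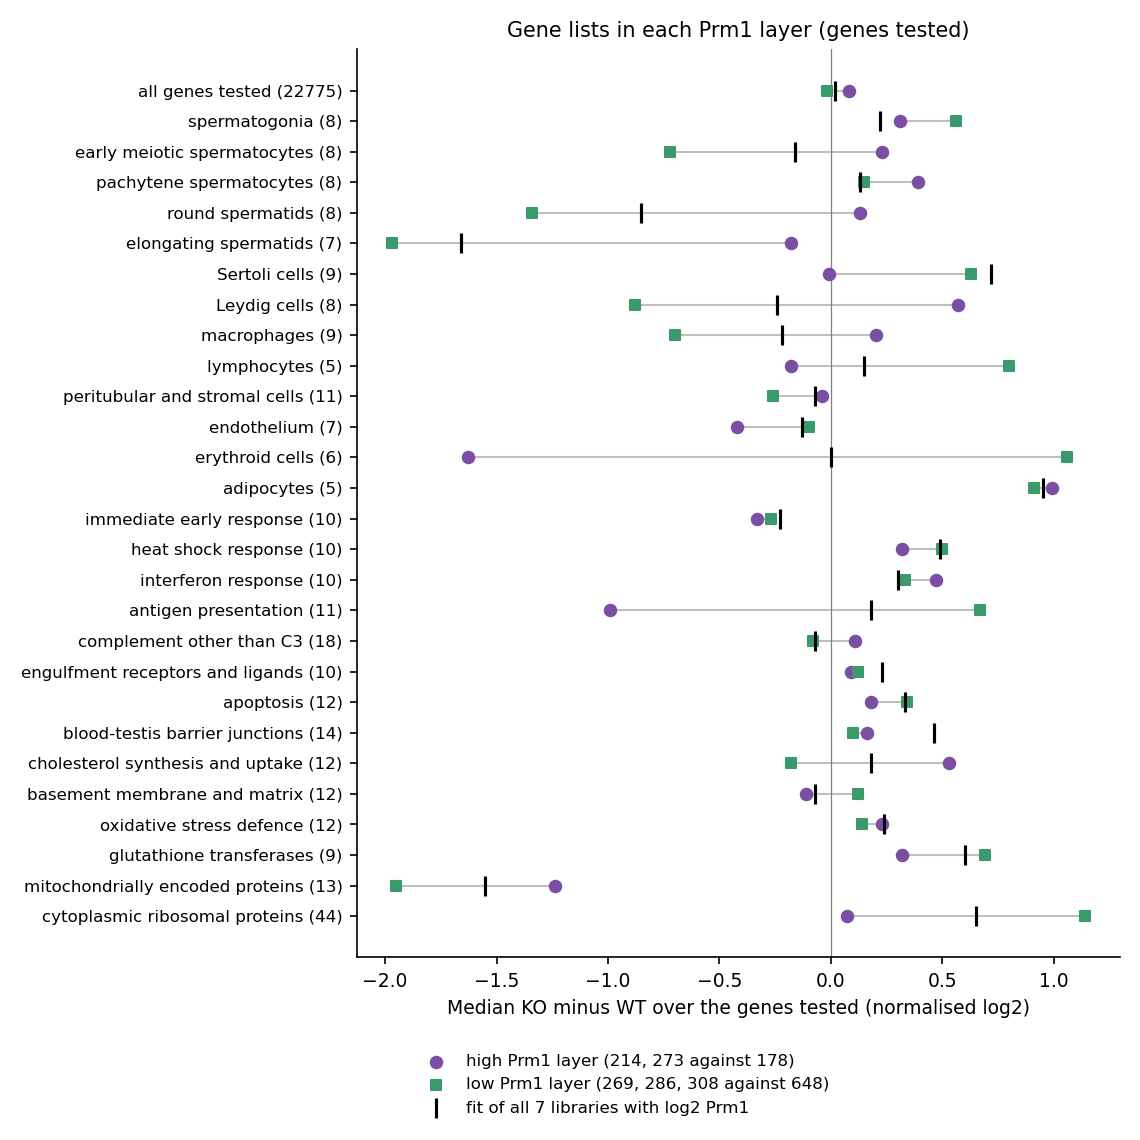
Median normalised log2 difference between KO and WT over the tested genes of each list, in the high layer (circles), in the low layer (squares) and at matched Prm1 over all 7 libraries (bars), with the number of genes tested in brackets. The mitochondrial list lies below 0 in both layers (-1.24 and -1.95), and the elongating spermatid list does so mostly in the low layer (-0.18 and -1.97).

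In limma's fit 0 genes of any function list were called, and outside the mitochondrial and ribosomal lists 0 to 2 genes a list had an unadjusted p under 0.05. For heat shock genes, 6 of 10 were higher without overlap in both layers (10.7% of all genes) and 0 by 1 log2 unit, with a median of 0.49 (0.32 and 0.50 in the layers). Hsp90aa1 was the most abundant at 3466 and 11024 RPKM in WT 178 and 648 and had a difference of 0.13. Hspe1, the cochaperone of the mitochondrial chaperonin, was at 5.26, 13.2 and 9.56 RPKM, and 7.15, 25.6, 16.8 and 51.4, without overlap within a layer (0.97, limma unadjusted p = 0.0438). The deposited medians of the list were 1.01 and 0.98.

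Oxidative stress genes had a median of 0.24, with 3 of 12 higher without overlap where 10.7% of all genes were, and 1 met the 1 log2 unit rule. The median was 0.10 without KO 308 and 0.14 without KO 273. The gene that met the rule was Prdx1, a peroxiredoxin that removes hydrogen peroxide, at 42.1 RPKM in WT 178, 176 in KO 214 and 202 in KO 273, then 88.7 in WT 648, 210 in KO 269, 185 in KO 286 and 322 in KO 308. All KO values lay above both WT values (1.16, SE 0.28, limma unadjusted p = 0.00227; layers 1.11 and 1.14). Gpx4 and Sod1 had 0.44 and 0.78 at matched Prm1, and Sod1 had -0.33 in the high layer. Glutathione transferase genes had 0.60, with 2 of 9 higher without overlap (10.7% of all genes), led by Gstm5 at 5057 to 14228 RPKM.

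Of the interferon genes 1 of 10 was higher without overlap in both layers (10.7% of all genes), Bst2, at 0.049 to 0.696 RPKM in all libraries. Ifi27 was the most abundant at 21.4, 42.3 and 37.1 RPKM, and 9.62, 131, 82.6 and 91.8, so KO lay above WT in each layer as deposited. After normalisation the differences were -0.09 in the high layer and 2.90 in the low layer. Antigen presentation genes had layer medians of -0.99 and 0.67, with H2-K1 at 75.5, 120 and 54.4 RPKM, and 32.1, 209, 134 and 230. The high layer overlapped and the low layer did not. The median of the list at matched Prm1 was 0.18, with -0.84 without WT 648 and 0.72 without WT 178.

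Among 18 complement genes other than C3, 4 were higher without overlap in both layers and 2 lower, beside 10.7% and 7.09% of all genes, and 1, Cd46, was higher by 1 log2 unit in each. Of the lower ones Cd55 was lower in the high layer only once normalised (-0.13); as deposited it was at 16.2 RPKM in WT 178, 27.1 in KO 214 and 30.7 in KO 273. Cd46, a complement regulator that in mice is found mainly in the testis, was at 3.4, 14.2 and 9.85 RPKM in the high layer and 0, 0.487, 0.234 and 0 in the low layer. The low layer values are near 0 and KO 308 equals WT 648 there as deposited. The median of the list was -0.07 (0.11 and -0.08 in the layers), and it was 0.02 without WT 648 and 0.10 without KO 286. Engulfment genes had 0.23 (0.11 without WT 648 and 0.15 without WT 178) with 0 of 10 apart in both layers, and Axl, a receptor of that list, was at 8.87 RPKM in WT 648 and 34.8 to 61.3 in the low layer KO libraries but at 20.5, 19.6 and 12.7 in the high layer.

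Apoptosis genes had a median of 0.33 with 4 of 12 higher without overlap (10.7% of all genes) and 0 by 1 log2 unit. Bcl2l1 led at 97.1 to 307 RPKM. Blood-testis barrier genes had 0.46 at matched Prm1 but 0.16 and 0.10 in the layers (2 of 14 higher without overlap), cholesterol genes 0.18 (3 of 12), matrix genes -0.07 (0 of 12) and immediate early genes -0.23 (2 of 10). Without WT 648 the barrier median was 0.20 and the cholesterol median 0.44, and without WT 178 they were 0.10 and -0.16. The matrix median was 0.14 without WT 178, and the immediate early median was 0.03 without KO 269 and -0.56 without KO 308. KO 308 had the highest immediate early sum, 611 RPKM against 46.3 to 205 in the other libraries.

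The genes that met the rule in both layers shared some features. Expression enters the rule through the 0.1 RPKM added, and fewer genes met it with 1 RPKM added. Low expression, and the short length that goes with it, are therefore not independent of the rule. The longest transcript had a median of 2306 nt over all genes tested, 1224 nt over the 323 higher genes and 1038 nt over the 215 lower genes. Models under 200 nt made up 5.98% of all genes, 11.5% of the higher (37) and 26% of the lower (56). Median GC content was 49.1%, 53.4% and 46.1%, and protein-coding genes were 74.4%, 65.0% (210) and 54.4% (117). Short genes carry few reads, and median expression was 2.6 RPKM over all genes against 0.932 and 0.5 RPKM over the higher and lower genes.

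By position, 23 of the 215 lower genes and 0 of the 323 higher genes were on mitochondrial DNA, of 37 such genes tested. Chromosome 8, which carries Csmd1, held 4.89% of all genes, 16 of the higher (4.95%) and 15 of the lower (6.98%). The X chromosome held 4.06%, 5.57% (18) and 4.19% (9). Among genes with a transcript of at least 200 nt, an alternative chosen after the data were seen, limma called 0 genes, with 1106 higher and 843 lower at an unadjusted p under 0.05, and 274 and 161 met the rule in both layers.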

How the data were processed

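RPKM per Ensembl transcript, 1 column a library, are the values the authors deposited, and they name TopHat2 for the mapping. Values were summed by gene (GENCODE M21, GRCm38; 90432 of 94480 transcripts matched) over transcripts with a value in all 7 whole testes. Value times length fell on whole reads in 93.3 to 94.5% of values tested (within 0.06 of a read; 12.0% by chance), which gave the mapped reads. No count model was fitted, and no interval for counting error is given.

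Genes with a mean of at least 0.1 RPKM were quantile-normalised as log2(RPKM + 0.1) and fitted with limma 3.58.1 in R 4.3.3 (genotype and log2 Prm1, trended variance, 4 residual degrees of freedom), with Benjamini-Hochberg adjustment over all genes. The fit was also run on simulated data, and no outcome of that run is given or used here. Tables and figures used Python 3.11.15, pandas 2.3.3, numpy 2.4.6 and matplotlib 3.10.9. Prm1, a covariate, was not among the genes tested.

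Named genes were up to 12 called in each direction; the 12 in each direction with a mean of at least 1 RPKM and the largest smaller layer difference; and the called, otherwise most abundant, genes of each list. Genes outside this rule (mt-Tf, single list members such as Bst2 and Cd46, and the chromosome 8 genes) were chosen after their values were seen. The members and lists were chosen with earlier results of these data known. Csmd1 and C3 are not described. Alternatives were the covariate, the value added before the log, the filter, scaling, missing values, the size minimum, and omission of each library.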

Additional observations from a re-analysis of the deposited data

Results flagged for a closer look

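For Gm17122, a clone-named antisense gene within Coro1c, KO 273 (0.858 RPKM, or -0.20 on the normalised log2 scale) lay far below the other 4 KO whole testes: on the normalised log2 scale, where those ran from 1.19 to 1.68, its gap to the nearest of them was 0.741 of the whole range of the group. Chance alone marks about 1 in 20 such groups, and 24 genes were examined, so its place is not read further.

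Among the cell type lists with at least 3 genes tested, there were 5 in which every KO library of the high Prm1 layer lay on one side of its WT library, by the median over the list of each gene's KO minus WT difference, and every KO library of the low layer lay on the other side. The layer medians were 0.23 (high) and -0.72 (low) for early meiotic spermatocytes. They were 0.13 and -1.34 for round spermatids. They were 0.57 and -0.88 for Leydig cells. They were -0.18 and 0.8 for lymphocytes. They were -1.63 and 1.06 for erythroid cells. These differences between layers were not tested, each layer has 1 WT library, and lymphocyte genes summed to at most 3.0 RPKM. On deposited values the Leydig cell medians were 0.38 (high) and -0.29 (low), beside 0.47 and 0.42 over all genes. Relative to all genes the Leydig cell list was thus lower in both layers on that scale.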

How the results depend on the processing

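No paired analysis was possible because each mouse has 1 genotype and 1 whole testis library. The limma counts (1 higher, 1 lower) were 0 and 0 without the Prm1 term and with no filter, and 1 and 0 with 0.01 RPKM added. With 1 RPKM added they were 0 and 1, the lower gene then being Grtp1. With a layer term, with the elongating spermatid list as covariate, on deposited values, with a filter of 1 RPKM and with missing transcripts as 0 they were 1 and 1. Leaving out 1 library gave 0 to 562 higher and 0 to 547 lower, both maxima without WT 178. The cause was not tested.

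The counts in both layers (323 higher, 215 lower) were 585 and 424 with 0.01 RPKM added, 35 and 32 with 1 RPKM added, 136 and 86 with a filter of 1 RPKM (fewer genes tested), 1191 and 128 on deposited values, and 2432 and 1614 with no minimum size. Leaving out a KO library gave 346 to 391 and 232 to 286; leaving out a WT library removes its layer. Alternatives chosen after seeing the data were the high layer alone (3001 and 2950), the low layer alone (3248 and 3202), and genes of at least 200 nt, where limma called 0 and 0. The cause was not tested.

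Of the alternative values for named genes, 310 kept direction and side of the threshold, 16 lost the call and 10 gained it, and none reversed. The 16 losses all fell on mt-Ta and the called miRNA gene. The other named genes were not called in the main fit, so their staying on that side of the threshold is no measure of stability. Of those for list medians and for the median of mitochondrial tRNA genes (group and omissions added after seeing the data), 388 moved by less than the replicate spread and 24 by more.

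With 5 KO and 2 WT libraries, 1 WT a layer, no spread of WT within a layer is known. WT 178 and WT 648 stand apart in zeros, sums and mitochondrial share, so genotype and library cannot be told apart for results that rest on either. Short genes rest on few reads, and the values are unstranded as far as is known, so overlapping genes are uncertain.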
